A study of Schizosaccharomyces pombe with 2 samples.

Results

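The 6 genes described here encode the histone chaperone FACT and the Spt proteins that travel with RNA polymerase II in the fission yeast Schizosaccharomyces pombe. They were chosen by gene ID, not by their values, though with earlier results of these data known. Together they make up 6 of the 4768 genes tested. They are pob3 (SPBC609.05), spt16 (SPBP8B7.19), nhp6 (SPAC57A10.09c), spt6 (SPAC694.07c), spt5 (SPAC23C4.19) and spt4 (SPBC21C3.16c), and each was found on the arrays. Each of 2 spotted arrays of open reading frames was hybridised with total RNA from both of 2 strains, labelled pob3 and wt (wild type). Replicate 1 carried pob3 RNA in Cy5 and wild type in Cy3, and replicate 2 the reverse, so the dyes were swapped. The labels name neither the pob3 allele nor the strain background, growth conditions or mating type of either strain. Whether RNA for each array was grown and extracted separately is not given either, so p-values cover only the spread of these arrays, which can be purely technical.

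Nucleosomes block an advancing RNA polymerase, and histone chaperones take them apart ahead of it and rebuild them in its wake. Pob3 and Spt16 together form FACT, which handles H2A-H2B dimers and H3-H4; in fission yeast pob3 can be deleted, while spt16 is essential. Nhp6 is a small HMG box protein that assists FACT in budding yeast. Spt6 is an H3-H4 chaperone bound to elongating polymerase, and Spt5 and Spt4 form DSIF, a clamp on the polymerase that governs its processivity and serves as a platform for capping and elongation factors. The series concerns FACT at centromeric heterochromatin, and the question here is whether transcripts of FACT and of its elongation partners differed in the pob3 strain.

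Of the 6 transcripts, that of pob3 itself was over 2-fold lower in the pob3 strain on both arrays, and the other 5 had mean log2 ratios between -0.38 and -0.001. At an adjusted p of 0.05 (limma with Benjamini-Hochberg adjustment over all genes tested), 0 of the 6 genes passed. This compares with 34 of 4768 genes in all, or 0.713% (0.608% higher and 0.105% lower), so a count of 0 among 6 is near the background. The count over all genes ran from 0 to 85 under other processing settings, so this share is itself uncertain. By the other measure, 1 of the 6 genes was over 2-fold apart in the same direction on both arrays, against 0.986% of all genes. That gene was pob3, which names the strain, so this count says nothing about the other 5. Ratios below are on the log2 scale, pob3 over wild type after loess normalisation, and errors are SDs of the 2 arrays, whose small number sets the precision.

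**Figure D1:**
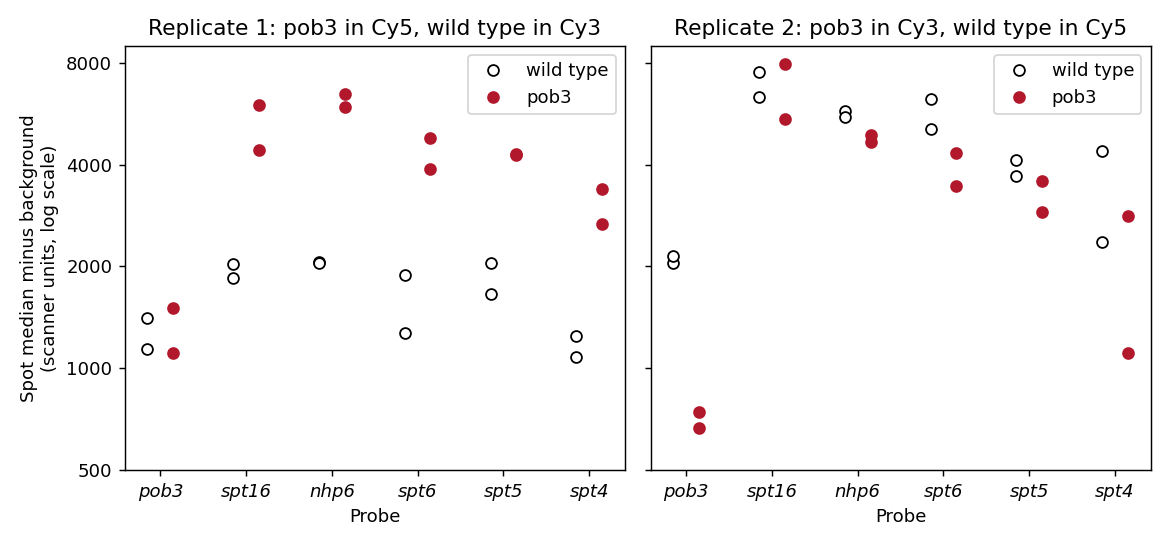
Signal of each probe above its local background, in scanner units on a log axis, for wild type (open) and pob3 (red) on replicate 1 (left) and replicate 2 (right), with 2 duplicate spots per array. On replicate 1 both pob3 probe spots read between 1110 and 1510 in either strain while the other 5 probes were brighter in pob3 RNA (Cy5), and on replicate 2 the pob3 probe read 667 and 743 in pob3 against 2046.5 and 2152 in wild type; levels of different probes are not comparable.

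The 24 member spots were of good quality: all 24 were free of a quality flag and above background in both channels, and 0 were saturated. The pob3 probe, which reports the gene that names the strain, gave net signals (spot median minus local background, in scanner units) of 1510 and 1110 in pob3 RNA and of 1413 and 1142 in wild-type RNA on the duplicate spots of replicate 1. These look equal, but the dyes were not balanced on that array, where the median gene spot had a log2 ratio of pob3 over wild type of 1.501 and 1.494 in the 2 spot files before normalisation. On replicate 2, where that median was -0.18 in both files, the net signals were 743 and 667 in pob3 and 2046.5 and 2152 in wild type, so that pob3 RNA gave 36.3% and 31.0% of the wild-type signal without any normalisation.

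After loess the pob3 transcript had log2 ratios of -1.36 and -1.44 on the spots of replicate 1 and of -1.02 and -1.21 on those of replicate 2. All 4 spots were thus more than 2-fold lower in pob3, and the duplicate spots of an array lay no more than 0.18 apart. The mean of -1.26 ± 0.20 (n = 2) corresponds to 2.39-fold lower signal, with a 95% confidence interval of the log2 ratio from -1.82 to -0.70 (limma) and an adjusted p of 0.0524, just short of the threshold of 0.05. Only 6 of the 4768 genes had a lower mean. The print block of pob3 had medians of 0.26 in both spot files of replicate 1 and of 0.03 and 0.04 on replicate 2. With these subtracted, its spots had -1.62 and -1.70 on replicate 1 and -1.06 and -1.24 on replicate 2, so the arrays lay further apart. The probe remained above background in the pob3 RNA on both arrays, at 3.76 and 2.86 times the local background in Cy5 and at 107 and 67.7 times in Cy3. The labels do not say which part of the gene, if any, was altered, and a probe outside an altered part would check nothing.

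**Figure D2:**
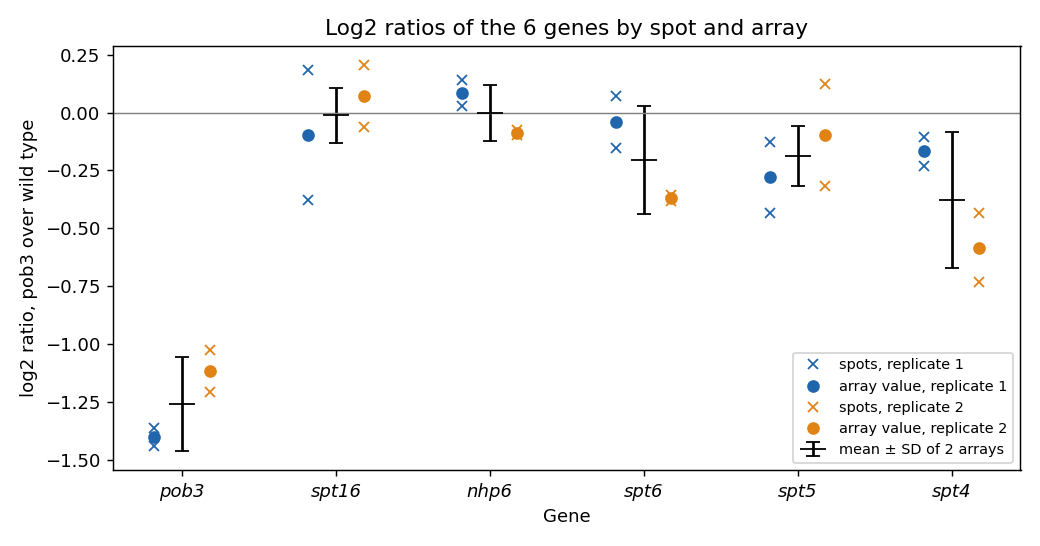
Log2 ratio of pob3 over wild type (vertical axis) for each of the 6 genes, as single spots (crosses), array values (circles) and mean ± SD of the 2 arrays (bars). All 4 pob3 spots lie below -1, whereas spots of the other 5 genes lie between -0.73 and 0.21.

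The transcript of spt16, whose product is the partner of Pob3 in FACT, had a mean ratio near 1. Its probe read 4417.5 and 6015 net units in pob3 RNA against 2039.5 and 1849.5 in wild type on replicate 1, and 5455 and 7919.5 against 6347 and 7510 on replicate 2. The log2 ratios were -0.38 and 0.19 on the spots of replicate 1 and -0.06 and 0.21 on those of replicate 2, so each array held a spot on either side of 0. The mean was -0.01 ± 0.12 (95% confidence interval -0.57 to 0.54, adjusted p = 0.993). The duplicate spots of replicate 1 differed by 0.56, the widest gap among the 6 genes, which is more than the arrays differed from each other (0.17). Within each array the log2 ratio of pob3 lay below that of spt16, with differences (pob3 minus spt16) of -1.31 on replicate 1 and -1.19 on replicate 2. An exact sign-flip test over 2 arrays cannot give a two-sided p below 0.5, so this difference was not tested.

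Transcripts of nhp6, whose product assists FACT in budding yeast, gave the ratio closest to 1 of the 6. Net signals were 6451.5 and 5921.5 in pob3 RNA against 2058 and 2043.5 in wild type on replicate 1, and 4894.5 and 4654 against 5766.5 and 5544 on replicate 2. The log2 ratios were 0.14 and 0.03 on replicate 1 and -0.07 and -0.10 on replicate 2. Both spots were thus above 0 on the array with pob3 in Cy5 and below 0 on the other, and the mean was -0.001 ± 0.12 (95% confidence interval -0.56 to 0.55, adjusted p = 0.999). In its print block, the patch of the array laid down by the same pin, the median gene lay between -0.32 and -0.16 in the 4 spot files. With the block medians subtracted, nhp6 had a log2 ratio of 0.23 and an adjusted p of 0.995.

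The H3-H4 chaperone gene spt6 had log2 ratios of -0.15 and 0.07 on replicate 1, and of -0.36 and -0.38 on replicate 2. Net signals were 4803 and 3892 in pob3 RNA against 1885.5 and 1273 in wild type on replicate 1, and 4339 and 3458 against 6261 and 5099 on replicate 2. The lower ratio rested on replicate 2, where the duplicate spots lay within 0.02 of each other, and the mean was -0.20 ± 0.23 (95% confidence interval -0.77 to 0.36, adjusted p = 0.919). Its print block had medians of -0.28 and -0.35 on replicate 2, close to the values of spt6 itself. With block medians subtracted the log2 ratio was 0.01, and with loess fitted within each block 0.009, so the sign turned.

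The DSIF genes were both lower than wild type in the mean, but neither by more than the arrays could resolve. For spt5, the large subunit, log2 ratios were -0.43 and -0.13 on replicate 1 and 0.13 and -0.32 on replicate 2, with a mean of -0.19 ± 0.13 (95% confidence interval -0.74 to 0.37, adjusted p = 0.927). Its net signals were 4270 and 4304 in pob3 RNA against 2052 and 1654 in wild type on replicate 1, and 3587 and 2897 against 3708 and 4127 on replicate 2. One of the 4 spots was above 0, and with block medians subtracted the mean was 0.005.

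For spt4, the small zinc finger subunit, all 4 spots were below 0, at -0.10 and -0.23 on replicate 1 and at -0.44 and -0.73 on replicate 2. The mean of -0.38 ± 0.29 was the lowest after pob3, with 9.82% of all genes tested lower still. Its 95% confidence interval ran from -0.94 to 0.19, and its adjusted p was 0.803. Net signals were 3380.5 and 2673 in pob3 RNA against 1242.5 and 1080 in wild type on replicate 1, and 2812 and 1113 against 4386 and 2359 on replicate 2. The second spot of replicate 2 was thus dimmer than the first in both RNAs and gave the lowest ratio. The print block of spt4 had medians of -0.26 and -0.25 on replicate 2 and of -0.10 and -0.11 on replicate 1, and with these subtracted spt4 had -0.20 (adjusted p = 0.996). Between the subunits of DSIF, the difference spt5 minus spt4 was -0.11 on replicate 1 and 0.49 on replicate 2, so their order was not the same on both arrays.

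**Figure D3:**
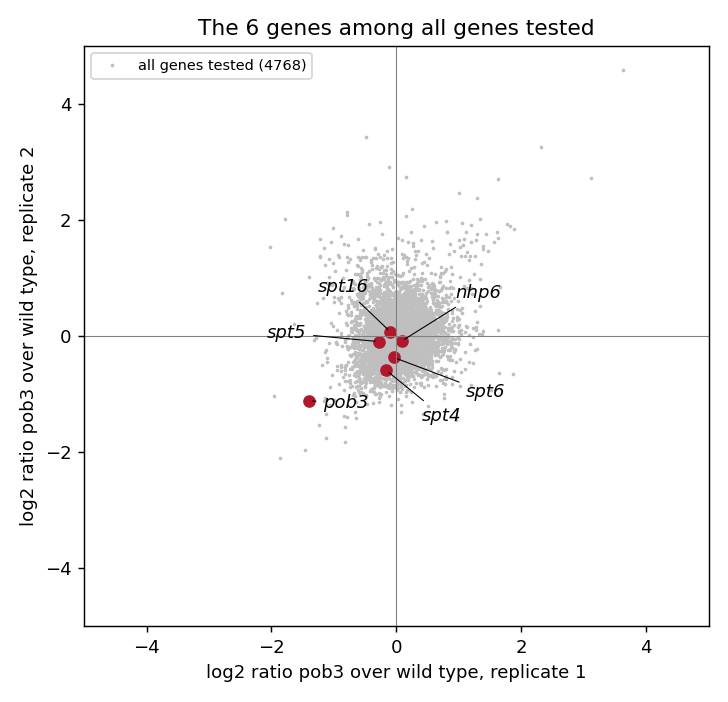
Log2 ratio of pob3 over wild type on replicate 1 (horizontal) and replicate 2 (vertical) for all 4768 genes tested (grey) and the 6 genes (red). The pob3 gene lies at the lower left at -1.40 and -1.11, and the other 5 lie within the body of the genes.

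Taken in order of their means, the genes ran from pob3 (-1.26) through spt4 (-0.38), spt6 (-0.20), spt5 (-0.19) and spt16 (-0.01) to nhp6 (-0.001). Since all genes were read on the same arrays, neighbours in this order were set against each other within each array. The difference spt6 minus spt4 was 0.13 on replicate 1 and 0.22 on replicate 2, and spt16 minus spt5 was 0.19 and 0.17, so these kept their order on both arrays. The order of spt16 and spt5 depended on the processing, however. With block medians subtracted their means were -0.08 and 0.005, with loess fitted within each block -0.09 and -0.02, and with first spots alone -0.22 and -0.15. In each of these settings spt16 lay below spt5. The order of spt5 and spt6 (-0.24 and 0.27, spt5 minus spt6) and that of spt16 and nhp6 (-0.18 and 0.16, spt16 minus nhp6) turned between the arrays. None of these differences was tested. The median of the 5 genes other than pob3 was -0.19, against 0.02 for all genes tested, whose lower and upper quartiles were -0.17 and 0.23. With block medians subtracted, these 5 genes lay on both sides of 0. They had 0.23 (nhp6), 0.01 (spt6), 0.005 (spt5), -0.08 (spt16) and -0.20 (spt4). Without this subtraction, 0 of the 6 means were above 0, against 52.0% of all genes. But those of spt16, nhp6, spt6 and spt5 changed sign under at least 1 other processing setting. A log2 ratio of the same sign on both arrays was seen in 4 of the 6 genes and in 52.5% of all genes. The 95% confidence intervals of the 5 genes other than pob3 ran from -0.94 at the lowest to 0.55 at the highest, so a 2-fold change of any of them in either direction lay outside its interval. Since the spread is pooled over all genes, these intervals are of nearly equal width (about 0.56 on either side). Over all genes tested, the log2 ratios of the 2 arrays had a Pearson r of 0.155 and a Spearman rho of 0.105. The arrays thus agreed little, which limits both these intervals and the orders kept on both arrays.

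With 1 array per dye orientation, the difference between the arrays holds any effect of the dye together with any difference between the arrays or RNA preparations, and these cannot be told apart. Divided by 2, the difference (replicate 1 minus replicate 2) was -0.14 for pob3, -0.08 for spt16, 0.09 for nhp6, 0.16 for spt6, -0.09 for spt5 and 0.21 for spt4. The mean over the arrays was larger in size than this value for pob3, spt6, spt5 and spt4, and smaller for spt16 and nhp6. The gap between arrays was 0.29 for pob3 and 0.42 for spt4, and 59.9% and 43.2% of all genes had a wider gap; the median over all genes was 0.37.

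By a rule based on the pair of array values, the genes nearest to pob3 were tif1102 (a translation initiation factor gene), sdh7 and dut1 (dUTPase, which keeps uracil out of DNA). The distance to pob3 over the 2 arrays was 0.25 for tif1102 (-1.16 and -1.11 on the arrays), 0.27 for sdh7 (-1.14 and -1.06) and 0.34 for dut1 (-1.07 and -1.19). With 2 values a gene, likeness means only a decrease of similar size, and their adjusted p-values lay between 0.0791 and 0.0903.

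A wider set of elongation genes was read from the same fit. A list of 22 elongation factors, kinases and capping enzymes had 21 measured members (cdk9 was not measured), of which 0 rose, 0 fell and 21 did not pass the test, a count near the 0.713% called among all genes. Their median log2 ratio was 0.06, against 0.02 for all genes. The unadjusted p was under 0.05 in 3 of the 21, or 14.3%, against 7.47% of all genes. These were hrp3, spt2 and ell1, and the lowest was hrp3, of a Chd1-family nucleosome remodeller, at -0.46 on replicate 1 and -1.17 on replicate 2 (mean -0.82 ± 0.50, adjusted p = 0.435). The gene for Spt2, another histone chaperone of transcribed chromatin, had -0.46 and -0.72 (mean -0.59 ± 0.18, adjusted p = 0.641). In the other direction, ell1, of the ELL elongation factor, had 0.83 and 0.44 (mean 0.63 ± 0.27, adjusted p = 0.604), and ceg1, of the mRNA capping guanylyltransferase that is recruited through Spt5, had 0.32 and 0.52 (mean 0.42 ± 0.14, adjusted p = 0.771).

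The Paf1 complex works with Spt5 and Spt6 on the polymerase. Among the genes grouped here under its name, cdc73 (-0.40), paf1 (-0.29) and leo1 (-0.16) had means below 0. Means of tpr1 (0.38) and prf1 (0.35) were above 0. The gene for Iws1, the binding partner of Spt6, had 0.17 and -0.05 on the arrays (mean 0.06), and tfs1, of the elongation factor TFIIS, had 0.22 and -0.53 (mean -0.16). The gene for Set2, which methylates H3 lysine 36 in transcribed genes, had -0.23 and 0.10 (mean -0.07). All 3 measured genes of the ELL complex had means above 0, with ebp1 at 0.34 and eaf1 at 0.08 beside ell1, but eaf1 had -0.15 and 0.31 on the arrays. The signs of tfs1, iws1, set2 and eaf1 thus differed between arrays.

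Of the 12 subunits of RNA polymerase II, 11 were measured under their gene names, of which 0 rose, 0 fell and 11 did not pass the test, and 0 had an unadjusted p under 0.05. Over all genes 0.713% were called and 7.47% had such a p, so both counts are near the background for 11 genes. Their median was -0.02, with a range from -0.32 to 0.41. The members with the smallest p were rpb3 (0.18 and 0.64 on the arrays, mean 0.41), rpb8 (-0.03 and -0.62, mean -0.32), rpb7 (-0.25 and -0.32, mean -0.29) and rpb5 (-0.02 and -0.45, mean -0.24), with adjusted p-values between 0.775 and 0.896. For the largest subunit, Rpb1, the array carried probes named for its 5′ end and its middle, which were looked up once the other values had been seen. They had means of 0.17 and 0.40, both above 0 on both arrays, with adjusted p-values of 0.934 and 0.775.

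**Figure D4:**
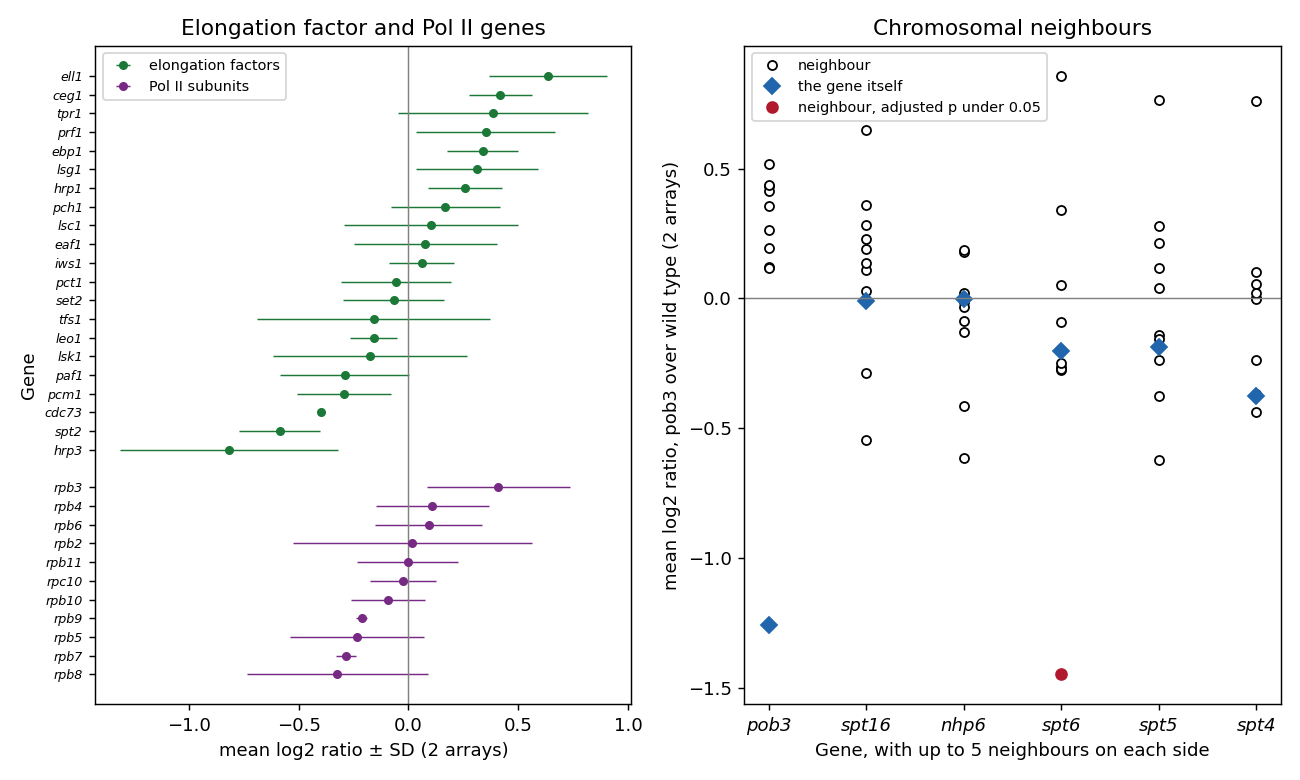
Left, mean log2 ratio of pob3 over wild type ± SD of 2 arrays for 21 elongation factor genes (green) and 11 RNA polymerase II subunit genes (purple). Right, means of the 6 genes (diamonds) and of their measured chromosomal neighbours (open circles); SPAC694.03, 4 genes from spt6, is the filled point at -1.45 and the 1 neighbour past the threshold.

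Neighbours on the chromosome were examined as local background, with up to 5 protein-coding genes on each side of each of the 6 genes in the order of the reference table. Of 60 neighbours 56 were measured, and 1 passed the threshold (1.79%, against 0.713% of all genes). This was SPAC694.03, which lies 4 genes from spt6 and fell, with -1.13 on replicate 1 and -1.76 on replicate 2 (mean -1.45 ± 0.44, adjusted p = 0.0365, limma). The call ended with an offset of 10, with median centring and with duplicateCorrelation. The adjacent neighbours of spt6 were mrc1 and has1, with means of -0.27 and -0.25, near the -0.20 of spt6. On replicates 1 and 2, mrc1 had -0.04 and -0.51 and has1 had -0.61 and 0.11, against -0.04 and -0.37 for spt6. The likeness of has1 to spt6 thus held for the means only. Around spt16 the neighbours had a median of 0.16, around nhp6 of -0.03, around spt6 of -0.25, around spt5 of -0.05 and around spt4 of 0.002. The neighbours of pob3 had a median of 0.35 and a lowest value of 0.12, with 9 of 10 measured, against the -1.26 of pob3 itself. Print block medians were not subtracted from these neighbour values. Effects of position on the array and on the chromosome therefore cannot be told apart in them.

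**Figure D5:**
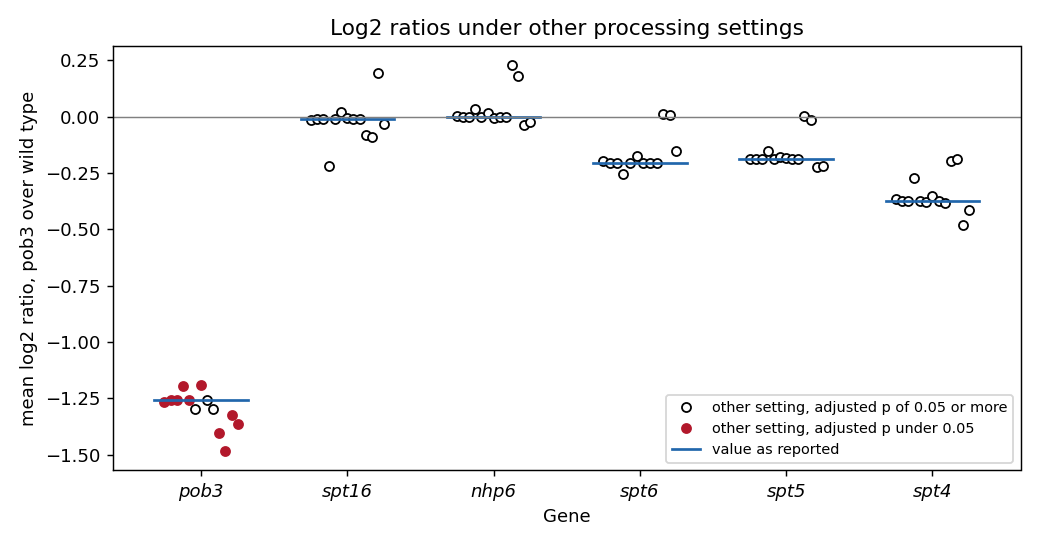
Mean log2 ratio of pob3 over wild type for each of the 6 genes as reported (blue line) and under each other processing setting (circles; red where the adjusted p was under 0.05). The pob3 values range from -1.48 to -1.19 and 10 of 13 pass, whereas 0 pass for the other 5 genes.

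The pob3 value sat at the edge of the threshold. Its log2 ratio stayed between -1.48 and -1.19 under 13 other settings, all of which reuse the same arrays. Of these settings 10 gave an adjusted p under 0.05, with a range of adjusted p from 1.91e-05 to 0.474 (limma). The lowest came with print block medians subtracted, where 85 of 4768 genes passed and the arrays lay further apart for pob3. The highest adjusted p, 0.474, came from centring each spot file on its median in place of loess, where 0 of 4768 genes passed by limma and 174 had an unadjusted p under 0.05. For the other 5 genes 0 settings gave a call, and adjusted p-values lay between 0.563 and 1.00.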

How the data were processed

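The members and lists were chosen with earlier results of these data known. The scanner values are intensities, per the file headers the median brightness of each spot and its local background in each channel, in 4 spot files (2 duplicate spots for each of 2 arrays). The authors used Lowess in GeneSpring, per the series' design text. The deposited log2 ratios have an r of 0.977 with the values computed here for replicate 2, in the direction pob3 over wild type; their centring stays unknown. For replicate 1 they hold 768 values, 0 on gene spots, and were not used, so scale, centring and direction are unknown there. Column medians were -0.12 and -0.04.

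Intensities were corrected with normexp (offset 50) and loess within each spot file, control spots at weight 0 (limma 3.58.1, R 4.3.3). Spots needed a quality flag of 0 and, in at least 1 channel, a signal over 2 background SDs (Cy3) or 1.5 times background (Cy5). The files give 1 background SD without naming its channel; it was taken from its values to belong to Cy3, so none was at hand for Cy5. That Cy5 limit and the naming of non-gene probes were set after the data were seen. Ratios were turned to pob3 over wild type and averaged per array, and the mean was tested against 0 with lmFit and eBayes, which pool the spread over genes (1 residual and 10.5 prior degrees of freedom). Of 4870 gene-like names 4649 matched 1 locus of the reference table (ASM294v3), used for names and gene order; 154 names marked missing and 26 reporter, intergenic, intronic or other probes were left out. Gene spots had median signals from 1978 to 4442 (Cy3) and from 5085 to 6308 (Cy5), against backgrounds of 8.5 to 16 and 545 to 599. Named genes were the 6 members, the 4 smallest p-values of each list, called neighbours and the 3 genes nearest pob3. Other genes grouped under the Paf1 complex, tfs1, iws1, set2, ebp1, eaf1, the Rpb1 probes, mrc1 and has1 were named with their values known. The fit was tested on simulated data. The list membership of rpb12 was read from its current name, rpc10. Alternatives changed background, normalisation, filter, spots, variance model and values used.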

Additional observations from a re-analysis of the deposited data

How the results depend on the processing

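Having 2 arrays limits all values, and the 24 spots of the 6 genes lay above background in both channels. For pob3, an adjusted p under 0.05 was reached at -1.27 with arrays scaled to equal spread, at -1.26 with both channels above background, with duplicateCorrelation and with an intensity trend, at -1.19 with first spots alone and without background correction, at -1.40 with print block medians subtracted, at -1.48 with print-tip loess, at -1.32 with second spots alone and at -1.37 with the submitters' values for replicate 2. It was not reached without a filter, with an offset of 10 or with median centring. The sign turned for nhp6 at 0.0022 with equal spread, 0.033 with first spots, 0.018 with median centring, 0.23 with print block medians and 0.18 with print-tip loess. It turned for spt16 at 0.022 with median centring and 0.20 with second spots, for spt5 at 0.0047 with print block medians, and for spt6 at 0.013 with print block medians and 0.0087 with print-tip loess; the cause was not tested. For spt4 it did not turn in 13 settings. The submitters' values for replicate 2 held no value for spt6. Without replicate 1 or 2 the values, with no test, ran from -1.40 to -1.11 for pob3, -0.09 to 0.07 for spt16, -0.09 to 0.08 for nhp6, -0.37 to -0.04 for spt6, -0.28 to -0.10 for spt5 and -0.58 to -0.17 for spt4. Counts of called genes cannot be had from 1 array. Over all genes, the 34 past the threshold became 54 at an adjusted p of 0.10, 0 with median centring, 13 with an offset of 10, 85 with print block medians, 55 with print-tip loess, 53 with second spots and 66 with the submitters' values (which cover 3133 genes), and lay within 1.5 times otherwise. The count of 1 called neighbour was 0 with 2 genes on each side, duplicateCorrelation, median centring and an offset of 10, and 2 with the submitters' values. No paired analysis was possible because the study has 1 group of log ratios, in which each array already sets both strains side by side.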
